A study of Homo sapiens with 6 samples.

Results

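The genes described here are 10 that encode proteins of the lipid droplet and carriers of fatty acids: PLIN2, PLIN3, FABP4, FABP5, DGAT1, DGAT2, PNPLA2, LIPE, HILPDA and G0S2. They were picked by name, and all 10 were found among the 57316 gene names counted. Cells were of THP-1, an established human monocytic leukaemia line, kept for 48 h with the phorbol ester PMA at 100 ng/ml, which drives them towards a macrophage-like state. Both groups had this PMA treatment. The CXCL10 group then had recombinant human CXCL10, a chemokine that binds the receptor CXCR3, at 100 ng/ml for 24 h, and the control group had a control solution. Each group has 3 libraries of polyadenylated RNA, numbered 1, 3 and 4. Whether these came from separate cultures is not said in the labels, so the spread behind each p-value may be technical. A single line in culture stands in for macrophages here, and RNA was measured, not lipid or protein. In such bulk RNA, fewer cells with a transcript and less of it per cell cannot be told apart.

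A lipid droplet is a store of triglyceride and sterol ester inside a coat of proteins. The diacylglycerol acyltransferases DGAT1 and DGAT2 make the triglyceride, perilipins cover the droplet surface, and the lipase ATGL, encoded by PNPLA2, removes the first fatty acid from it. G0S2 and HILPDA inhibit that lipase, ABHD5 activates it, and the hormone-sensitive lipase encoded by LIPE acts on the diacylglycerol it leaves. Fatty acid binding proteins carry the released or imported fatty acids through the cytosol. Droplet-filled macrophages are the foam cells of atherosclerotic plaques.

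For none of the 10 genes was a difference between CXCL10 and control called by edgeR after adjustment over all genes. FABP5 and FABP4, the most abundant of the 10 per length, had the largest differences, with log2 fold changes of -0.41 ± 0.17 and -0.34 ± 0.19 (SE), and G0S2 followed at -0.32 ± 0.18. The droplet coat gene PLIN2 had -0.07 ± 0.13 and the lipase gene PNPLA2 had -0.08 ± 0.14. In the quasi-likelihood fit of edgeR, adjusted by Benjamini-Hochberg over 16531 genes, 0 of the 10 passed an adjusted p of 0.05, where 0% of all tested genes did. The adjusted p-values of the 10 ran from 0.683 to 0.996. At an unadjusted p under 0.05 the count was 1 of 10, FABP5, against a background of 7.14% of all tested genes (2.5% higher and 4.65% lower with CXCL10). DESeq2 and limma-voom also called 0 of the 10 and put the same gene, FABP5, under an unadjusted p of 0.05. For none of the 10 did all CXCL10 libraries lie on one side of all controls, while 12.2% of tested genes showed such a separation. For all 10 the log2 fold change had a 95% interval inside -1 to 1, as it did for 74.4% of tested genes, so a doubling or halving of any of them lies outside its interval. Of the 10 fold changes 8 were below 0, with a median of -0.09, against 46.0% below 0 and a median of 0.02 over all tested genes. Scaled by library size alone, 6 of 10 were below 0 with a median of -0.01. That scaling also turned the split of all genes at an unadjusted p under 0.05 from 413 higher and 768 lower to 744 higher and 407 lower.

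The libraries held from 34.8 to 41.0 M reads. Control replicate 4 stood apart: it had reads in 21546 genes where the others had 23631 to 24807, and 11.8% of its reads came from ribosomal protein genes (names RPL or RPS with a number) against 7.07% to 9.08% elsewhere. Levels in it leaned towards short genes, by -0.07 on the log2 scale per doubling of gene length, and in CXCL10 replicate 3 towards long genes, by 0.07. Controls 1 and 3 had -0.027 and -0.0017, and CXCL10 replicates 1 and 4 had -0.011 and 0.034, so the lean partly ran along the groups. G0S2, FABP4 and FABP5, with 876, 1396 and 1904 exon bases, are the shortest of the 10 genes described. The part of this lean in their differences was not tested beyond removal of the length trend. Of 10 macrophage markers 9 passed the low-count filter, and the receptor gene CSF1R had 48888 to 63014 reads. The 10 summed to 8260 to 9379 CPM in controls and 7868 to 8384 CPM with CXCL10, and 0 passed the adjusted threshold by edgeR. ITGAM, with 125 to 157 CPM in controls and 176 to 184 CPM with CXCL10, and TYROBP, with 474 to 857 and 371 to 507 CPM, had an unadjusted p under 0.05 in opposite directions, and the groups did not overlap for ITGAM and CD163. Their part in the results on the 10 genes was not tested. CD68 held 0 to 5 reads. As 81.6% of its exon length is shared with other annotated genes on the same strand, and reads over 2 genes were not counted, its level is not known from these counts. Markers of the fat cell, the other cell type known for large droplets, were near 0: of 8, none passed the filter, ADIPOQ, LEP and PCK1 had 0 reads in every library, which allows up to 0.146 to 0.173 CPM (3 fragments, or 6 reads with both mates counted, for counting error only), and the 8 summed to 0.291 to 0.568 CPM in controls and 0.255 to 0.971 CPM with CXCL10. Among T cell markers TRAC had 7229 to 10346 reads, whereas CD3D, CD3E, CD3G and CD2 had at most 10 in any library. Marker lists of other cell types summed to 28.0 to 35.7 CPM in controls and 28.8 to 33.6 CPM with CXCL10 for hepatocytes (nearly all from SERPINA1, which monocytes also make), 1.55 to 1.80 and 1.67 to 2.37 CPM for fibroblasts, and 0.150 to 0.529 and 0.162 to 0.620 CPM for epithelium. Endothelial markers summed to 1.23 to 2.30 CPM in controls and 2.60 to 3.67 CPM with CXCL10, nearly all from VWF with 35 to 125 reads. VWF had a log2 fold change of 0.73 with an unadjusted p under 0.05 by edgeR, and its groups did not overlap. It was not called after adjustment, and the part of these markers in any result here was not tested.

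**Figure D1:**
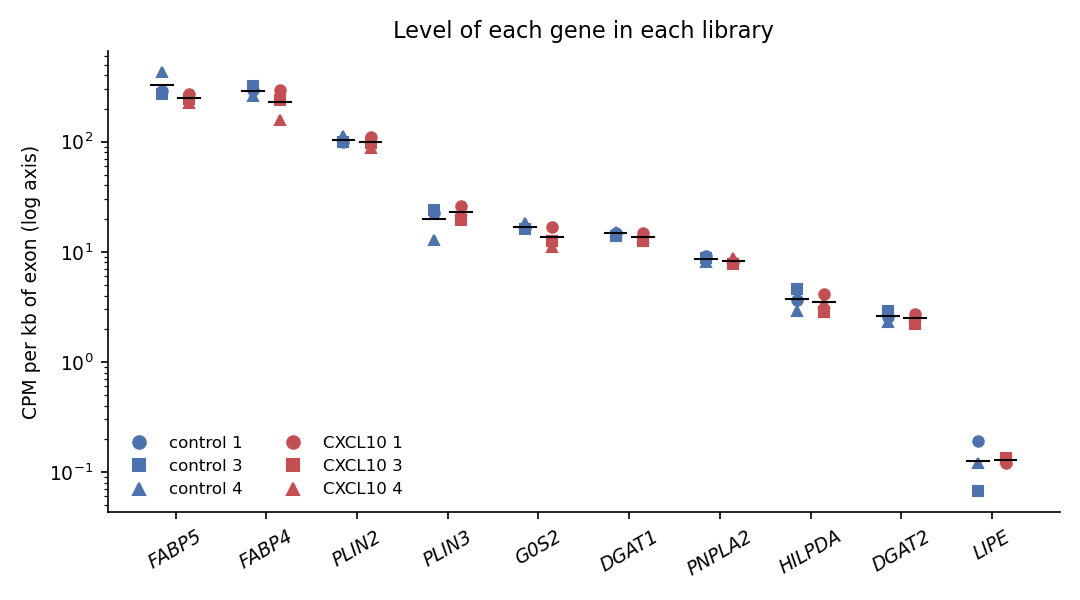
Level of the 10 genes in each library, as CPM (counts per M reads) per kb of exon on a log axis, with controls in blue, CXCL10 in red, the replicate number as the symbol and the group mean as a bar. FABP5, FABP4 and PLIN2 stand between 88.5 and 432 CPM per kb, LIPE stays under 0.191, and the groups overlap for every gene.

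Levels are given as CPM, scaled between libraries by edgeR's TMM factors, and divided by exon length where genes are compared with each other. On that scale FABP5 (289 ± 73.4 CPM per kb, mean ± SD over 6 libraries) and FABP4 (260 ± 58.6) led, and they could not be ranked, since each was the higher in 3 of 6 libraries. PLIN2 came next at 101 ± 8.76 and was below FABP4 in all 6 libraries. PLIN3 at 21.4 ± 4.76, G0S2 at 15.2 ± 2.70 and DGAT1 at 14.1 ± 0.984 formed a middle group. On full exon length PLIN3 was above G0S2 in 5 of 6 libraries and G0S2 above DGAT1 in 5 of 6. Reads over stretches shared with other genes were not counted, though that length is divided by. Such stretches make up 18.3% of PLIN3, 10.9% (same strand) and 3.32% (other strand) of DGAT1, and none of G0S2. G0S2 and DGAT1 are therefore not ranked here. PNPLA2 (8.44 ± 0.536), HILPDA (3.59 ± 0.695), DGAT2 (2.55 ± 0.266) and LIPE (0.127 ± 0.0396) followed in the same order in all 6 libraries. FABP4 and FABP5 stood at the 99.0 and 99.1 percentiles of all tested genes on this scale, PLIN2 at 97.4, DGAT2 near the middle at 50.6 and LIPE at 6.38.

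PLIN2, also known as adipophilin, is the perilipin that most cells outside fat tissue place on their droplets. Its gene spans chr9:19108375-19149290 on the minus strand (hg38, exons of GENCODE 30 as in the count files). It had 496, 497 and 561 CPM in control replicates 1, 3 and 4 and 552, 487 and 443 CPM in CXCL10 replicates 1, 3 and 4. The highest library of each group lay above both remaining controls, and the 6 values spanned 1.27-fold. The log2 fold change had a 95% interval from -0.35 to 0.21 (adjusted p = 0.930 by edgeR).

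PLIN3, or TIP47, is a perilipin that moves between the cytosol and new droplets. Its gene lies at chr19:4838341-4867694 on the minus strand, and 18.3% of its exon length is opposite another annotated gene. It had 61.0, 65.8 and 34.9 CPM in controls 1, 3 and 4 and 71.1, 52.9 and 65.1 CPM in CXCL10 libraries 1, 3 and 4. Control replicate 4 stood alone at the bottom, and the other 5 libraries overlapped. The log2 fold change was 0.22 ± 0.20 (adjusted p = 0.823 by edgeR) with all libraries and -0.0049 without control replicate 4.

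Promoter sequences from RefSeq (GRCh38.p14) are given for the perilipin pair, since PLIN2 and PLIN3 belong to one family and differed several-fold in level in every library. Each runs from 250 bases before to 50 after a RefSeq transcription start, 5′ to 3′ on the gene's strand. The PLIN2 window is chr9:19127443-19127742 and the PLIN3 window chr19:4867618-4867917, both on the minus strand. Capitals mark matches on either strand to ACGTG (the core of the hypoxia response element, which the E-box CACGTG contains), CCAAT (the NF-Y box), GGGCGG (the GC box), TATAAA (the TATA box), TGANTCA (an AP-1 site) and AGGTCA (a nuclear receptor half-site).
PLIN2: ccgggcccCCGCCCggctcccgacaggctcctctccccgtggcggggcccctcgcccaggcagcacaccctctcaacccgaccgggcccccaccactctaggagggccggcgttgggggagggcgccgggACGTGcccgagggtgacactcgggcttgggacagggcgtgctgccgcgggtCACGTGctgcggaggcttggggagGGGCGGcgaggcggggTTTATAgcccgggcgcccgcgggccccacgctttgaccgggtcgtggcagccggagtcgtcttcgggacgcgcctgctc
PLIN3: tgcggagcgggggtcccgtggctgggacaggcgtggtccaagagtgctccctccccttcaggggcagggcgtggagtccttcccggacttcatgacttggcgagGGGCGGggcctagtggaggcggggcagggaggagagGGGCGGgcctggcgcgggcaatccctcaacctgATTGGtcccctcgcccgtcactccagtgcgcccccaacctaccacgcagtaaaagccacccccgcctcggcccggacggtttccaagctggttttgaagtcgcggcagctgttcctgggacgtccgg

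In the PLIN2 window the letters CACGTG start at -69, a further ACGTG at -120, GGGCGG at -242 and -45, and TATAAA at -29, counted from the start site. Of these, TATAAA at -29 and GGGCGG at -242 are on the opposite strand, printed above as TTTATA and CCGCCC. The PLIN3 window has CCAAT at -77 (on the opposite strand, printed as ATTGG) and GGGCGG at -146 and -110. Among 35116 RefSeq promoter windows of the same length, ACGTG was present in 21.4%, CACGTG in 7.26%, CCAAT in 34.6%, GGGCGG in 45.0%, TATAAA in 11.5%, TGANTCA in 7.71% and AGGTCA in 13.8%. These are matches of letters only. Chromosome 8 was left out of the search, so windows of FABP4, FABP5 and DGAT1 were not looked up. Of the 10 genes 5 were matched, and DGAT2 and HILPDA had no entry.

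FABP4, known as aP2, carries fatty acids in fat cells and macrophages. Its gene is at chr8:81478419-81483263 on the minus strand. It had 410, 446 and 360 CPM in controls 1, 3 and 4 and 411, 331 and 218 CPM in CXCL10 libraries 1, 3 and 4. CXCL10 replicate 1 was level with the controls and CXCL10 replicate 4 was far below every other library, so the spread with CXCL10 (30.3% of the mean) was wider than in controls (10.6%). The interval of the log2 fold change ran from -0.75 to 0.06 (adjusted p = 0.716 by edgeR). Leaving out CXCL10 replicate 4 gave -0.13, and leaving out replicate 1 of that group gave -0.56. With each library's gene length trend removed it was -0.20 (adjusted p = 0.926 by edgeR). FABP4 was the only one of the 10 called under any setting: limma-voom with library quality weights, a setting added after the data had been seen, gave -0.76 with an adjusted p of 0.0378, and called 0.254% of all genes. The highest weight there went to CXCL10 replicate 4 (3.01) and the lowest to control replicate 4 (0.321). Over all its alternatives the adjusted p of FABP4 ran from 0.0378 to 0.999.

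FABP5, the epidermal-type carrier that macrophages also make, has its gene nearby on the same chromosome, at chr8:81280536-81284777 on the plus strand. It had 547, 518 and 822 CPM in controls 1, 3 and 4 and 520, 469 and 427 CPM in CXCL10 libraries 1, 3 and 4. Control replicate 4 was far above the rest, and CXCL10 replicate 1 was level with control replicate 3, which is the only overlap between the groups. Means were 629 ± 168 CPM in controls and 472 ± 46.3 CPM with CXCL10 (SD, n = 3 each), with an interval of the log2 fold change from -0.78 to -0.05 (adjusted p = 0.683 by edgeR). It was -0.17 without control replicate 4 (unadjusted p = 0.21 by edgeR), and -0.27 with each library's gene length trend removed (adjusted p = 0.844 by edgeR). What part the lean of control replicate 4 towards short genes has in this value was not tested beyond that setting. The files list 13 genes named as FABP5 pseudogenes, which together had 219 to 333 reads per library against 15241 to 27504 for FABP5. Reads that fit both were left out of the counts, so the FABP5 level may be too low.

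DGAT1 and DGAT2 are unrelated enzymes for the last step of triglyceride synthesis. DGAT1 (chr8:144314584-144326910, minus strand) had 61.1, 57.6 and 63.0 CPM in controls 1, 3 and 4 and 61.1, 52.1 and 55.7 CPM in CXCL10 libraries 1, 3 and 4. Its 6 values lay within 1.21-fold of each other, and the log2 fold change came to -0.11 ± 0.13 (edgeR adjusted p = 0.873). Of its exon length 10.9% is shared with genes on the same strand, and reads over that stretch were left out. DGAT2 (chr11:75759512-75801535, plus strand) had 20.1, 23.0 and 18.2 CPM in controls and 21.5, 17.4 and 20.9 CPM with CXCL10, in the same order. The groups covered nearly the same range, and the log2 fold change of -0.04 ± 0.16 (edgeR adjusted p = 0.971) was 0.04 scaled by library size alone.

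PNPLA2, the ATGL gene (chr11:818914-825573, plus strand), was the steadiest of the 10. It had 35.1, 33.5 and 31.0 CPM in controls 1, 3 and 4 and 31.1, 29.7 and 33.7 CPM in CXCL10 libraries 1, 3 and 4, a span of 1.18-fold. Its log2 fold change had an interval from -0.37 to 0.22 (adjusted p = 0.922 by edgeR). Exons of PNPLA2, LIPE, DGAT2 and FABP5 share 10.5%, 9.69%, 6.83% and 4.20% of their length with genes on the other strand. As the counting did not use strand and left out reads over 2 genes, reads over these stretches were not counted. LIPE (chr19:42401514-42427388, minus strand) had 13 to 38 reads per library, the fewest of the 10. It measured 0.983, 0.344 and 0.628 CPM in controls and 0.620, 0.696 and 0.673 CPM with CXCL10, so the controls spanned the CXCL10 libraries on both sides. Its interval from -0.95 to 0.99 does not leave out a difference of nearly 2-fold either way (adjusted p = 0.996 by edgeR). The spread was 49.2% of the mean in controls and 5.84% with CXCL10.

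G0S2 (chr1:209675412-209676390, plus strand) encodes a short protein that binds ATGL and blocks it. It had 14.3, 14.1 and 16.0 CPM in controls 1, 3 and 4 and 14.6, 11.1 and 9.76 CPM in CXCL10 libraries 1, 3 and 4. The controls were close together, CXCL10 replicate 1 lay among them, and CXCL10 replicates 3 and 4 were below all of them. The interval ran from -0.70 to 0.06 (adjusted p = 0.716 by edgeR). Without CXCL10 replicate 1 the log2 fold change was -0.50, and it was -0.20 when CXCL10 replicate 4 was left out. Removal of each library's length trend gave -0.14. With 876 exon bases G0S2 is the shortest of the 10.

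HILPDA (chr7:128455849-128458418, plus strand), a hypoxia-inducible droplet protein, also inhibits ATGL. It had 7.56, 9.55 and 6.01 CPM in controls 1, 3 and 4 and 8.58, 5.89 and 7.07 CPM in CXCL10 libraries 1, 3 and 4. Each group held both high and low libraries, and the log2 fold change of -0.10 ± 0.21 (edgeR adjusted p = 0.932) turned to 0.09 without control replicate 3 and 0.03 without CXCL10 replicate 3. Of its exon length 13.2% is shared with other genes on the same strand. ABHD5, the ATGL activator, which is not one of the 10, had 12.1, 12.6 and 16.2 CPM in controls and 9.49, 15.1 and 13.9 CPM with CXCL10 (log2 fold change -0.09 ± 0.20, adjusted p = 0.943 by edgeR). That value turned to 0.06 without control replicate 4 and 0.09 without CXCL10 replicate 1.

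The promoter windows of the lipase and of its inhibitor G0S2 are shown together because the 2 transcripts were compared as a ratio within each library. The PNPLA2 window is chr11:818664-818963 and the G0S2 window chr1:209675162-209675461, both on the plus strand, with capitals for the same letters as above.
PNPLA2: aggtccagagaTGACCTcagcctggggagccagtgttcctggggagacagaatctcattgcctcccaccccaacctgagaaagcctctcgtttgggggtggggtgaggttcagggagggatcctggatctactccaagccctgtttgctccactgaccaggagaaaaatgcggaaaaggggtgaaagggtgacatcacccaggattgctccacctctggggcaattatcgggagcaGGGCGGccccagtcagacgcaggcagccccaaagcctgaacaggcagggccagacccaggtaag
G0S2: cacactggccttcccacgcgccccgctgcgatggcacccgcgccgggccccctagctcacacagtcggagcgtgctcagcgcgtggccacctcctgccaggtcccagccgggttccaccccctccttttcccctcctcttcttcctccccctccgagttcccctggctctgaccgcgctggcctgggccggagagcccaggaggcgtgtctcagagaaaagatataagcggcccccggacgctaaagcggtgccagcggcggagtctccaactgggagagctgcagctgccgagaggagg

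The PNPLA2 window has AGGTCA at -239 (on the opposite strand, printed as TGACCT) and GGGCGG at -14. None of the listed letters is in the G0S2 window, and the AGGTCA repeat spaced by 1 base, the form that PPAR receptors bind, is in none of the 4 windows shown and in 0.0228% of all windows.

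**Figure D2:**
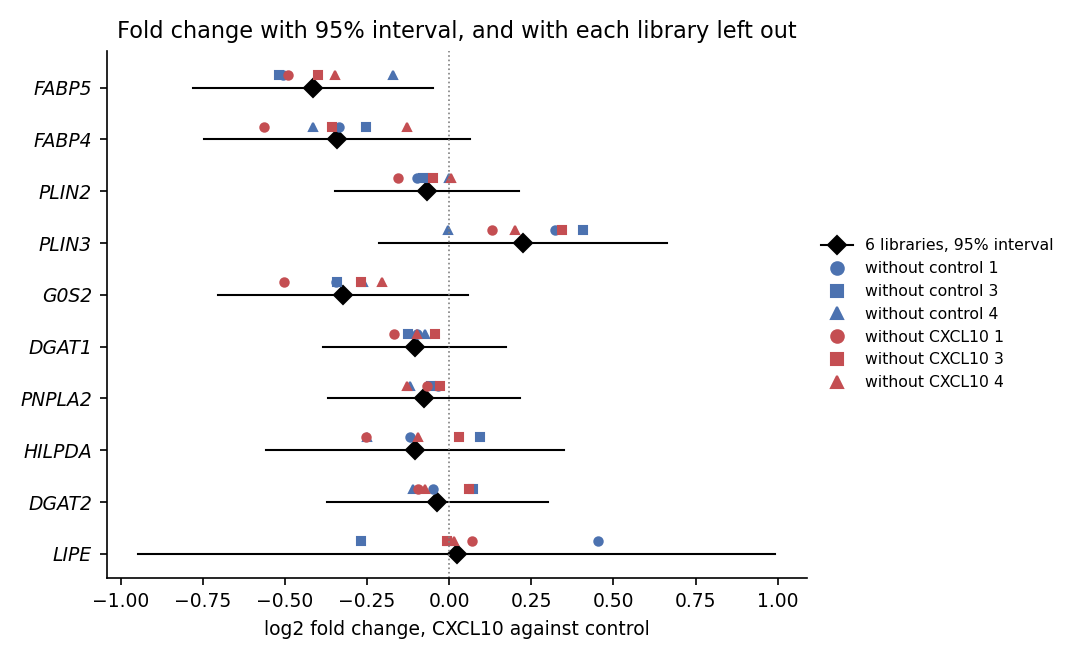
log2 fold change of CXCL10 against control for the 10 genes by edgeR (black diamonds) with 95% intervals (lines), and the value with each library left out (coloured symbols above each line). FABP5 has the lone interval that leaves out 0, and its value moves from -0.41 to -0.17 without control replicate 4.

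Ratios of reads per kb within a library do not depend on scaling between libraries, and 6 of them were tested by exact permutation (two-sided), where 3 against 3 libraries cannot give a p under 0.1. None separated the groups, and all 6 Benjamini-Hochberg adjusted p-values were 1. G0S2 exceeded PNPLA2 in every library, by 1.27-fold to 2.25-fold. The log2 ratio of G0S2 to PNPLA2 was 0.84, 0.88 and 1.17 in controls 1, 3 and 4 and 1.04, 0.71 and 0.34 in CXCL10 libraries 1, 3 and 4. CXCL10 replicate 1 lay inside the control range and the other two lay below it, giving a difference of -0.27 (exact permutation p = 0.4). Leaving out CXCL10 replicate 4 brought that difference to -0.0878, and leaving out replicate 1 of that group to -0.437. HILPDA was below PNPLA2 in every library, at 0.358 to 0.528 of it, with a difference between groups of -0.02 on the log2 scale (exact permutation p = 0.8). ABHD5 stood at 0.155 to 0.265 of PNPLA2, with a difference of -0.03 (exact permutation p = 0.9).

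PLIN2 exceeded PLIN3 by 3.72-fold to 8.79-fold. These folds use full exon length, of which 18.3% in PLIN3 and 0% in PLIN2 is shared with another gene and was not counted. Control replicate 4 gave the highest value, at 3.13 on the log2 scale, and the remaining 5 libraries lay between 1.90 and 2.33. The difference of -0.34 (exact permutation p = 0.6) was 0.0066 without that library. FABP4 over FABP5 was 0.03, 0.23 and -0.74 on the log2 scale in controls 1, 3 and 4 and 0.11, -0.06 and -0.52 with CXCL10. Replicate 4 was the lowest of both groups, and the means differed by 0.0023 (exact permutation p = 1). In that pair control replicate 4 was low through a high FABP5 and CXCL10 replicate 4 through a low FABP4. DGAT1 exceeded DGAT2 by 4.78-fold to 6.62-fold, with a difference of -0.07 (exact permutation p = 0.6).

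**Figure D3:**
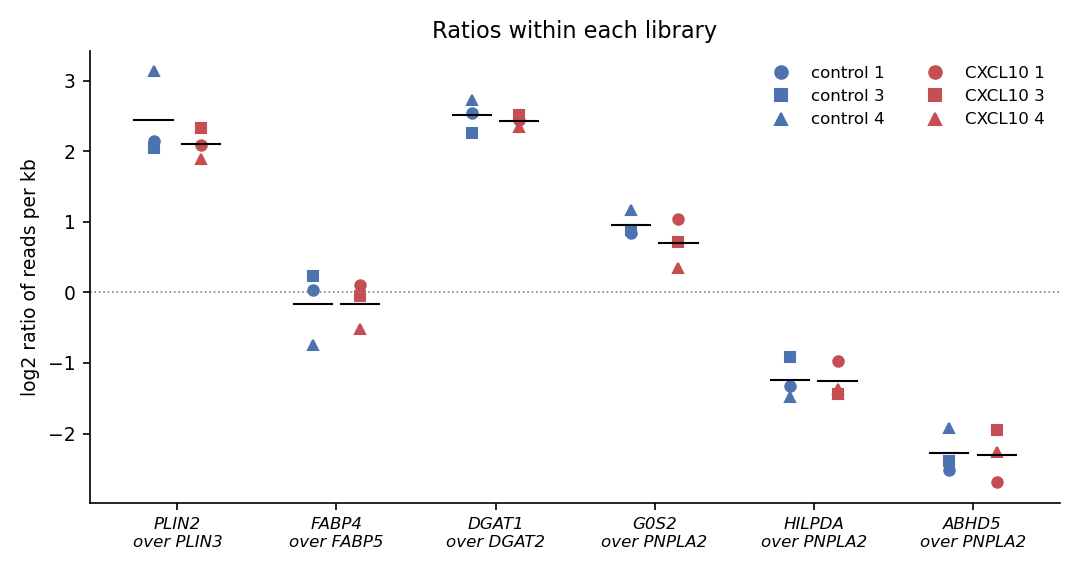
log2 ratio of reads per kb of exon for 6 gene pairs in each library, with controls in blue, CXCL10 in red and group means as bars. The groups overlap in every pair, and control replicate 4 stands apart at 3.13 for PLIN2 over PLIN3.

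Across the 6 libraries, Pearson's r between the log2 levels of the genes was above 0 for 27 of 45 pairs. The libraries share depth and length effects, so these values only describe them. The highest was DGAT2 with HILPDA, at 0.953, and it was 0.855 without the 2 libraries farthest from the median of DGAT2. PLIN2 with G0S2 had 0.876, and 0.561 when treated alike. The lowest, PLIN3 with FABP5 at -0.82, rested on the libraries that stand apart: it was -0.104 without the 2 farthest and 0.212 without control replicate 4 alone. The genes with levels most like PLIN2, among 8746 with a mean of at least 10 CPM, were SUV39H1 (r = 0.993), MMAB (r = 0.985) and EIF4A3 (r = 0.978) over the 6 libraries. They are the highest values of a search over 8746 genes in few libraries, so they are a description only, and shared regulation was not tested.

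Other genes of droplet and fatty acid metabolism were followed in 7 lists, and 0 of their 93 tested genes passed the adjusted threshold by edgeR. At an unadjusted p under 0.05 there were 5 of 93, or 5.38%, against 7.14% of all tested genes. DESeq2 and limma-voom likewise called 0 of the 93, each with 5 at an unadjusted p under 0.05. limma-voom with library quality weights called 0 of the 93 and put 16 of them (17.2%) under that p, along with 18.3% of all genes. With a library left out, the edgeR count was 1 of 93 (EPAS1) without control replicate 4, where 3.79% of all genes passed, and 2 (ABHD6 and CES1) without CXCL10 replicate 3, where 3.71% did. It was 1 (DBI) without CXCL10 replicate 4, beside 3.79% of all genes, and 9 without CXCL10 replicate 1, beside 12.3%. Without control replicate 3 it was 7, beside 9.44% of all genes. EPAS1, ABHD6 and CES1 are named here only for these counts. In each list the 3 genes of highest level per kb are named. For the directions below, 8934 of all 16531 tested genes were above 0. Scaling by library size alone moved the median of all genes from 0.02 to 0.10, and the directions of the lists under that scaling are not given here.

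For droplet coat and assembly, 10 of 17 genes were tested, 4 above 0 and 6 below, with a median log2 fold change of -0.07. AUP1 had -0.23 ± 0.13, HSD17B11, which encodes a droplet-associated dehydrogenase, had -0.16 ± 0.13, and METTL7A had -0.14 ± 0.13. The fat-cell perilipin PLIN1 had at most 2 reads in any library. For triglyceride and sterol ester synthesis, 12 of 16 tested genes were above 0 (median 0.09). Among the 4 below 0 was the acyltransferase gene AGPAT2, with 89.2, 72.4 and 116 CPM in controls and 77.8, 58.5 and 62.4 CPM with CXCL10 (log2 fold change -0.48 ± 0.17, adjusted p = 0.683 by edgeR). The acyl-CoA synthetase gene ACSL4 had 0.19 ± 0.17 and AGPAT5 had 0.07 ± 0.15.

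For lipolysis and ester hydrolysis, 10 of 13 tested genes were above 0, with a median of 0.16. LPL, the secreted lipoprotein lipase, had 439 ± 16.1 CPM in controls and 505 ± 78.1 CPM with CXCL10 (log2 fold change 0.20 ± 0.14), and LIPA, the lysosomal acid lipase, had 0.16 ± 0.14. ABHD12 had 0.0064 ± 0.14. PNPLA3, named after its values were seen, was the only gene of the list with an unadjusted p under 0.05, at 1.42, 1.51 and 1.29 CPM in controls and 1.75, 2.41 and 2.38 CPM with CXCL10 (adjusted p = 0.683 by edgeR). For fatty acid uptake and carriers, 9 of 16 genes were tested, 5 of them below 0 (median -0.10), and FABP1, FABP2 and FABP12 had 0 reads in all libraries. DBI, the acyl-CoA binding protein gene, had 505, 509 and 694 CPM in controls 1, 3 and 4 and 471, 372 and 444 CPM with CXCL10, so its groups did not overlap, at a log2 fold change of -0.41 ± 0.15 (edgeR adjusted p = 0.683). The scavenger receptor gene CD36 had 0.14 ± 0.17 and the transporter gene SLC27A4 had -0.10 ± 0.13.

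For PPAR and RXR receptors and genes that respond to fatty acids, 11 of 13 tested were above 0 (median 0.11), among them the mitochondrial carrier gene UCP2 at 0.07 ± 0.14, ACADVL at 0.17 ± 0.13 and RXRA at 0.06 ± 0.14. Genes of mitochondrial beta-oxidation had a median of -0.15, with 10 of 15 below 0. HADHA, a subunit of the trifunctional protein, had 0.0023 ± 0.12, SLC25A20 had 0.06 ± 0.13, and ECHS1 had -0.33 ± 0.15. ETFB, named after its values were seen, had 63.3 CPM in control replicate 4 and 24.9 to 32.8 CPM in the other 5 libraries (log2 fold change -0.59 ± 0.25). Hypoxia response genes, a group to which HILPDA also belongs, had a median of -0.01 with 8 of 17 above 0. The glycolytic gene LDHA had -0.04 ± 0.12, the glucose transporter gene SLC2A1 had 0.02 ± 0.12 and HIF1A had 0.20 ± 0.16.

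**Figure D4:**
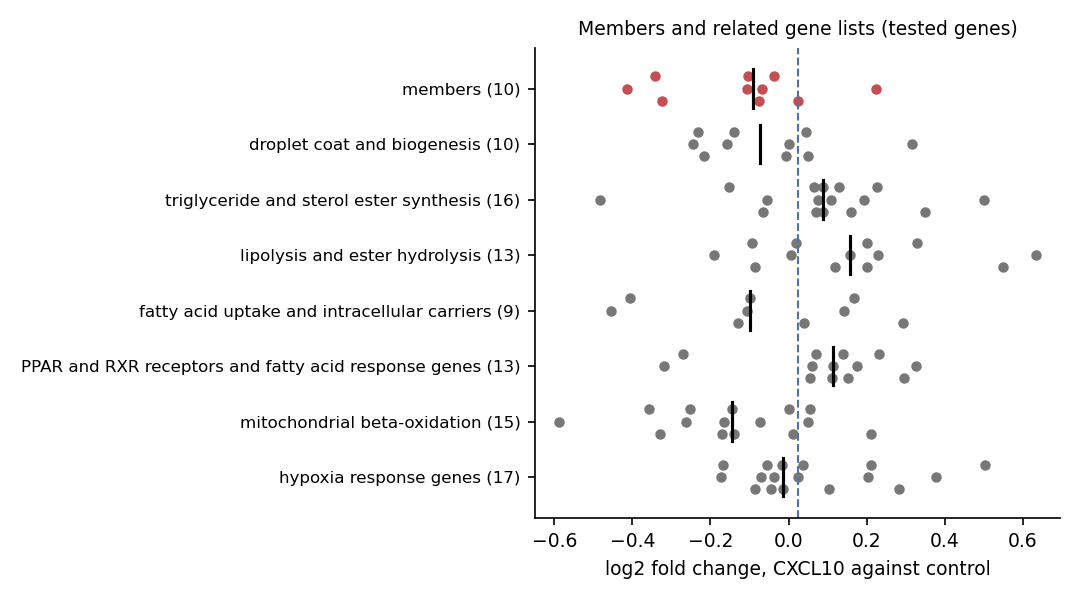
log2 fold change of CXCL10 against control for the tested genes among the 10 (red) and in 7 related lists (grey), with the list median as a black bar and the median of all 16531 tested genes as a dashed line. The medians of the lists lie between -0.15 and 0.16, and no gene plotted passed the adjusted threshold.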

How the data were processed

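RNA of 3 control and 3 CXCL10 libraries was sequenced with a stranded mRNA kit, per the labels' protocols. Per the file headers, the authors made raw read counts per gene with featureCounts 2.0.6 on the exons of GENCODE 30, and the deposited counts were not normalized. The same files give each gene's exon length in bases. Per the submitters' processing notes, Trim Galore, STAR and hg38 were used, with versions not given in the sources used here. Pairs were counted as 2 reads and without strand, reads over 2 genes or in several places were not counted, and genes of one name were merged.

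From these counts, edgeR 4.0.16 (R 4.3.3) was run with filterByExpr, TMM factors and a quasi-likelihood fit on the group, with Benjamini-Hochberg adjustment over 16531 genes and a threshold of 0.05. SEs come from the fold change and its F statistic. The fit was also run on counts simulated from its own dispersions, with no library standing apart and no length trend. That run cannot show how the fit handles either of these. No 2 libraries agreed within sampling noise. Totals were 38.9, 38.0 and 36.0 M reads for controls 1, 3 and 4 and 36.9, 41.0 and 34.8 M for CXCL10 1, 3 and 4.

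The genes, lists and tests were chosen with earlier results of these data known. Named are the 10 genes, ABHD5, the 3 genes of highest level per kb in each list, any past the threshold, and the 3 most like PLIN2. PNPLA3, ETFB, EPAS1, ABHD6, CES1 and the cell type markers lie outside that rule, and the first 5 were named after their values were seen. Alternatives were other scalings and filters, DESeq2 1.42.0, limma-voom (limma 3.58.1), a replicate block, removal of the length trend, halved counts, other thresholds and each library left out. Quality weights in limma-voom were added after the data were seen.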

Additional observations from a re-analysis of the deposited data

How the results depend on the processing

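The count of 0 called among the 10 genes held under every setting run except limma-voom with library quality weights, which called 1 (FABP4). Over all genes, that setting called 11 higher and 31 lower, and edgeR with no filter on low counts called 45 higher and 92 lower. The count of the 10 at an unadjusted p under 0.05, which was 1 where 7.14% of all tested genes passed, became 0 under scaling by library size alone (6.96% of all genes) or removal of the length trend (5.73%), 2 with no filter (6.64%), and 3 with quality weights (18.3%). It ran from 0 to 3 with a library left out: 0 without CXCL10 replicate 3 or CXCL10 replicate 4 (3.71% and 3.79% of all genes), and 3 without CXCL10 replicate 1 (12.3%). Without control replicate 4 it stayed at 1 (3.79% of all genes), but the gene changed from FABP5 to FABP4. There the unadjusted p by edgeR was 0.0371 for FABP4 and 0.21 for FABP5.

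With the replicate number as a block (replicate block) the count was 2, FABP5 and FABP4, where 1323 of all 16531 genes passed against 1181 with no block. The log2 fold change of FABP4 was then -0.385. Deviations of same-numbered libraries correlated by 0.026, 0.019 and -0.051 for numbers 1, 3 and 4. What same-numbered libraries share is not said in the labels, and these values from 3 libraries per group cannot settle it.

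Scaled by library size alone, the log2 fold change turned to 0.013 for PLIN2, 0.037 for DGAT2 and 0.0037 for ABHD5. That of LIPE turned to -0.019 with the length trend removed, and that of ABHD5 to 0.098 with quality weights. With each library left out, values ran from -0.155 to 0.0048 for PLIN2, -0.0049 to 0.407 for PLIN3, -0.109 to 0.074 for DGAT2, -0.27 to 0.454 for LIPE, -0.253 to 0.094 for HILPDA and -0.214 to 0.091 for ABHD5. Ratios then ran from -0.539 to 0.0066 for PLIN2 over PLIN3, -0.289 to 0.198 for FABP4 over FABP5, -0.198 to 0.036 for DGAT1 over DGAT2, -0.162 to 0.144 for HILPDA over PNPLA2 and -0.2 to 0.17 for ABHD5 over PNPLA2. The cause of these turns was not tested. FABP4, FABP5, G0S2, DGAT1 and PNPLA2 stayed below 0 in all 17 alternatives each, as did G0S2 over PNPLA2 in all 7. None of the 7 removed the length trend, which took G0S2 alone from -0.323 to -0.139 and gave -0.078 for PNPLA2. PNPLA2 came to -0.000345 scaled by library size alone, and G0S2 over PNPLA2 ran from -0.437 without CXCL10 replicate 1 to -0.0878 without CXCL10 replicate 4. LIPE rests on 13 to 38 reads per library, and the part of depth in its wide interval was not tested.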
